A study of Homo sapiens with 6 samples.

Results

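miR-221 and miR-222 are a pair of miRNAs made from 2 neighbouring hairpins on the X chromosome. Their 4 mature products (hsa-miR-221-3p, hsa-miR-221-5p, hsa-miR-222-3p and hsa-miR-222-5p, written here without the species prefix) were taken by name from tables of 2588 human mature miRNAs, and all 4 were among the 620 that passed the filter on low counts. Small RNA was sequenced from A549, a line derived from a human lung adenocarcinoma, in which METTL1, a methyltransferase that places N7-methylguanosine (m7G) on RNA, was knocked down by a doxycycline-inducible system. Both groups came from knock-down cells that had received doxycycline (200 ng/ml) for 5 days. The first group was total RNA (input, n = 3 libraries) and the second was heat-denatured RNA recovered with an antibody against m7G (m7G-RIP, n = 3 libraries). Cells with normal METTL1 and control immunoprecipitations were not analysed here. The values therefore set antibody-recovered RNA against total RNA, both after knock-down, and carry no information on what METTL1 does. How much RNA was recovered is unknown, and every level is a share of its own library. The labels do not say whether the 3 libraries of a group came from separate cultures. The p-values measure only the spread between these libraries, which may be technical.

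A miRNA hairpin is cut into a short duplex with a 5p and a 3p arm, and the arm that is loaded into an Argonaute protein pairs with target mRNAs mainly through its seed, bases 2 to 8. miR-221-3p and miR-222-3p share a seed and so are expected to share many targets. They are known as oncogenic miRNAs in several carcinomas, where their targets include CDKN1B, which encodes the cell cycle inhibitor p27, and the receptor tyrosine kinase KIT. m7G is a methylated guanosine, so base content is also described below.

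The mature sequences are shown because the main comparison is between products with the same seed and different 3′ parts. They are RefSeq entries of build GRCh38.p14, written 5′ to 3′ with the seed in capitals, and 3 of the 4 members were matched to an entry.
miR-221-3p: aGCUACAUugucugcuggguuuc
miR-222-3p: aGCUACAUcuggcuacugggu
miR-222-5p: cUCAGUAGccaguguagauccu
miR-221-3p has 23 bases (chrX:45746180-45746202, minus strand), miR-222-3p has 21 bases (chrX:45747036-45747056, minus strand) and miR-222-5p has 22 bases (chrX:45747073-45747094, minus strand). The seed GCUACAU was held by these 2 among the measured miRNAs that had a sequence, and the seed of miR-222-5p by no other. miR-221-3p and miR-222-3p are the same over their first 8 bases. Over the 21 positions that both have, 11 were identical and 10 were mismatches. The study's methods give an alignment with at most 1 mismatch, but the submitters' processing notes name another aligner. Whether reads of either were counted for the other was not tested. After the shared start they have only CUGGGU in common as a further run of 6 bases, at positions 15 to 20 of miR-221-3p and 16 to 21 of miR-222-3p. 

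The hairpins show how the arms lie. The arms with a RefSeq mature entry are in capitals.
MIR221: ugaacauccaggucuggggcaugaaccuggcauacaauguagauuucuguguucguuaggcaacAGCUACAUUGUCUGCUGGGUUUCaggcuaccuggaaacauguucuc
MIR222: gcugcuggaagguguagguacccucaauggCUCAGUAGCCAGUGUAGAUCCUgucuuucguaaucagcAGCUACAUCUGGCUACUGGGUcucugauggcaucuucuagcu
MIR221 (chrX:45746157-45746266) and MIR222 (chrX:45747015-45747124), both on the minus strand and 110 bases long, lie 748 bases apart. In GENCODE release 44 both lie in an intron of MIR222HG-201, a transcript of the long noncoding host gene of the pair. The MIR221 hairpin also overlaps the single-exon transcript MIR222HG-203 by 24 bases.

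The input libraries held 9155690 to 10753443 counts and the m7G-RIP libraries 2649238 to 3106556, so the smaller m7G-RIP libraries have the wider counting error. Levels are given as CPM (counts relative to the scaled size of the library). For the cell type markers alone, CPM are relative to all counts of the library without scaling, so they are not comparable with the other levels. The 6 epithelial markers summed to 439 to 462 CPM in input and 261 to 326 in m7G-RIP. Of these, miR-200a-3p, miR-200b-3p and miR-200c-3p had counts in all 6 libraries, whereas miR-141-3p and miR-205-5p were each at 0 in 4 libraries and miR-429 in 1. The culture text of the m7G-RIP samples describes the medium of Caco-2, an intestinal line. The 3 intestinal markers, miR-192-5p, miR-194-5p and miR-215-5p, had counts in every library and summed to 17900 to 18200 CPM in input and 3570 to 3730 in m7G-RIP, so they do not tell the lines apart here. Of 5 blood markers, 3 were at 0 in every library and the sum reached at most 1.81 CPM, and the liver marker was at 0 throughout. Of the neuronal markers, miR-9-5p gave nearly all of a sum of 411 to 502 CPM in input and 120 to 150 in m7G-RIP. Of 3 muscle markers, 1 was at 0 throughout, and their sum was 7.54 to 9.65 CPM in input and 0.644 to 135 in m7G-RIP. The highest of these was in m7G-RIP replicate 2, and its part in the results was not tested beyond leaving that library out.

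The comparison of m7G-RIP with input asked how far the antibody recovered each product, and the members did not move as a group. Any other difference in how the input and m7G-RIP libraries were prepared cannot be told apart from the antibody step. Both arms of miR-221 fell in m7G-RIP, by more than 3-fold with the main scaling of the libraries (TMM). With scaling by library size alone the falls were smaller, at log2 ratios of -1.35 for miR-221-3p and -1.15 for miR-221-5p. miR-222-3p, which has the same seed as miR-221-3p, was higher in m7G-RIP by 1.28-fold, a small difference whose call was lost under several settings. miR-222-5p, the rarest of the 4, did not pass the test. By the quasi-likelihood test of edgeR, 146 (23.5%) of all 620 miRNAs were higher in m7G-RIP (enriched) and 181 (29.2%) were lower (depleted), so that either direction was common in these libraries. Scaling by library size alone gave 216 enriched and 141 depleted miRNAs.

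miR-221-3p, the main product of its hairpin, had 23723, 22626 and 21949 counts in input replicates 1 to 3 and 2106, 2586 and 2889 counts in m7G-RIP replicates 1 to 3. After scaling of the libraries (TMM), its levels were 2677, 2689 and 2886 CPM in input and 620.3, 811.8 and 773.3 CPM in m7G-RIP. All m7G-RIP libraries lay below all input libraries, which was true of 36.5% of the miRNAs tested. The mean was 2751 ± 117 CPM in input and 735.2 ± 101 CPM in m7G-RIP (SD, n = 3 each). The log2 ratio was -1.90 (SE 0.13; edgeR adjusted p = 2.75e-06), a 3.74-fold lower level. In order of abundance it went from rank 34 in input to rank 58 in m7G-RIP.

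miR-221-5p, the minor arm of the same hairpin, had 6040, 5484 and 5162 counts in input and 756, 730 and 614 in m7G-RIP. Its levels were 681.6, 651.8 and 678.7 CPM in input against 222.7, 229.2 and 164.4 CPM in m7G-RIP. The groups again did not overlap, with m7G-RIP below. The means were 670.7 ± 16.4 and 205.4 ± 35.7 CPM (SD, n = 3 each), a 3.27-fold lower level. On the log2 scale the ratio was -1.71 (SE 0.16; edgeR adjusted p = 1.8e-05). The ratio between the arms of miR-221 is tested below.

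miR-222-3p was the most abundant of the 4 in every library. It had 53537, 46433 and 51187 counts in input and 25873, 25045 and 29626 in m7G-RIP. Its levels were 6041, 5519 and 6730 CPM in input and 7621, 7862 and 7930 CPM in m7G-RIP. Every m7G-RIP library lay above every input library, which was true of 29.5% of the miRNAs tested. The means were 6097 ± 607 and 7805 ± 162 CPM (SD, n = 3 each), and the log2 ratio was 0.36 (SE 0.10; edgeR adjusted p = 0.0174). It moved from rank 20 to rank 15. The call was lost without a filter on low counts, where the log2 ratio was 0.084 (edgeR adjusted p = 0.574), and when any single library other than input replicate 3 was left out, with log2 ratios of 0.13 to 0.33 (edgeR adjusted p of 0.0514 to 0.423). With scaling by library size alone the log2 ratio was 0.91.

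miR-222-5p, the minor arm of miR-222, had 162, 149 and 202 counts in input and only 61, 38 and 65 in m7G-RIP. Its levels were 18.28, 17.71 and 26.56 CPM in input and 17.97, 11.93 and 17.4 CPM in m7G-RIP, and the groups overlapped. The means were 20.85 ± 4.95 and 15.77 ± 3.33 CPM (SD, n = 3 each). The log2 ratio was -0.40 (SE 0.36; edgeR adjusted p = 0.369) and turned to 0.16 with library size alone. The SE was close to the size of the ratio itself, so no direction is given for it.

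**Figure D1:**
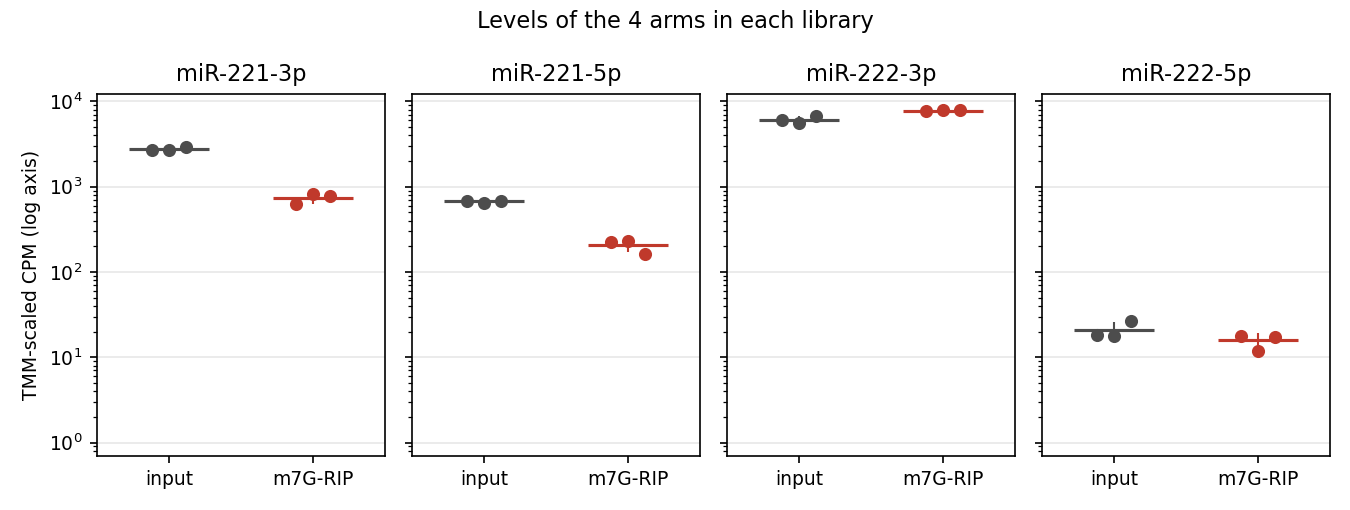
TMM-scaled CPM (log axis) of each of the 4 arms in the 3 input (grey) and 3 m7G-RIP (red) libraries. Points are libraries, horizontal lines are means and vertical lines are 1 SD. Both arms of miR-221 lie lower in all m7G-RIP libraries, miR-222-3p lies slightly higher with means of 6097 and 7805 CPM, and miR-222-5p overlaps.

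Counted from the lowest log2 ratio among the 620 miRNAs, miR-221-3p stood at position 141, miR-221-5p at 157, miR-222-5p at 279 and miR-222-3p at 366. The members therefore stood in the lower and middle part of the distribution and none was at either end of it. The median of all 620 was -0.074, so miR-222-3p was a little above the middle and both arms of miR-221 well below it.

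**Figure D2:**
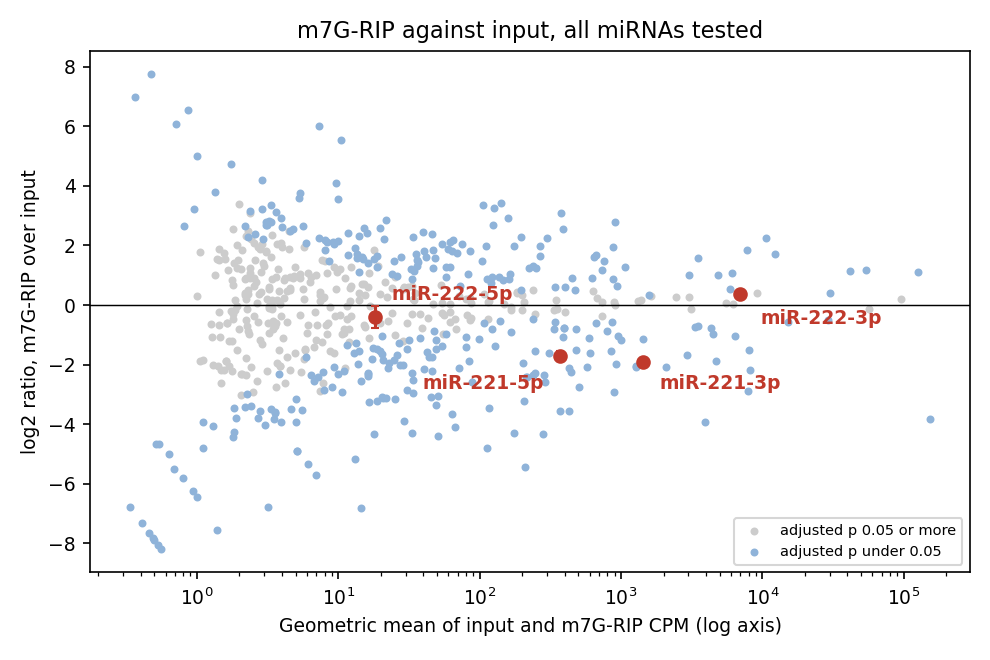
Log2 ratio of m7G-RIP over input for 620 miRNAs against the geometric mean of their input and m7G-RIP CPM (log axis), with means under 0.05 CPM drawn at 0.05. Blue points passed the edgeR test at an adjusted p under 0.05, grey points did not, and the 4 arms are in red with bars of 1 SE. miR-222-3p at 0.36 lies above zero, while miR-221-3p and miR-221-5p lie at -1.90 and -1.71 among other depleted miRNAs.

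The ratio of 2 miRNAs within a library does not depend on how libraries are scaled, so the members were next compared with each other, in 4 pairs. The largest of these changes was between the 3p arms. In input, 2.26, 2.05 and 2.33 reads of miR-222-3p were counted for each read of miR-221-3p in replicates 1 to 3. In m7G-RIP there were 12.3, 9.68 and 10.3. The mean log2 ratio was 1.14 ± 0.096 in input and 3.42 ± 0.18 in m7G-RIP (SD, n = 3 each). It rose by 2.27 (SE 0.12; 95% interval 1.99 to 2.55), which is 4.83-fold, with a limma adjusted p of 5.51e-06 over 162 pairs of miRNAs that share a seed. The exact permutation p was 0.1, the smallest that 3 against 3 libraries can give. Under each of 11 alternatives, which included leaving out each library, this change was between 2.17 and 2.34 and passed the limma test.

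Expressed as a share, miR-222-3p made up 69.29%, 67.24% and 69.99% of the counts of both 3p arms in input and 92.47%, 90.64% and 91.11% in m7G-RIP. The mean was 68.8% ± 1.43 in input and 91.4% ± 0.951 in m7G-RIP (SD, n = 3 each), a difference of 22.6 percentage points (exact permutation p = 0.1). The 95% Wilson interval of a single library spanned at most 0.7 percentage points, so counting error was small beside this difference. That interval covers counting error only, since the reads carry no molecular identifiers.

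Between the 5p arms the ratio also shifted toward miR-222, which brought their levels closer together, since miR-221-5p was the more abundant. The mean log2 ratio of miR-222-5p over miR-221-5p was -5.03 ± 0.31 in input and -3.70 ± 0.51 in m7G-RIP (SD, n = 3 each). It rose by 1.33 (95% interval from the SD of the 6 libraries 0.37 to 2.29), or 2.51-fold, with an exact permutation p of 0.1. This pair had no limma test, because miR-221-5p had no sequence. Its interval is therefore not comparable with the limma intervals of the other pairs. The groups did not overlap, but the ratio rests on as few as 38 counts of miR-222-5p. How many other pairs of miRNAs were without overlap was not counted. With both arms together, miR-222 took 64.1% ± 1.57 of the counts of the 4 members in input and 89.3% ± 0.881 in m7G-RIP (SD, n = 3 each; exact permutation p = 0.1).

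Within a hairpin the arms changed less. There were 3.93 to 4.25 reads of miR-221-3p for each read of miR-221-5p in input and 2.79 to 4.71 in m7G-RIP, and the groups overlapped. The log2 ratio changed by -0.19 (SE 0.19; 95% interval -0.64 to 0.26; limma adjusted p = 0.447 over 143 arm pairs; exact permutation p = 0.5). The interval leaves room for a change of up to 0.64 in the direction of the 5p arm, so the arms are not shown to be recovered alike. The 3p arm held 80.4% ± 0.633 of the counts of miR-221 in input and 78.0% ± 4.44 in m7G-RIP (SD, n = 3 each).

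miR-222 was much more one-sided. For each read of miR-222-5p there were 253 to 330 reads of miR-222-3p in input and 424 to 659 in m7G-RIP. The groups did not overlap, and how often this held for other arm pairs was not counted. The change in log2 ratio was 0.75 (SE 0.34; 95% interval -0.03 to 1.53) and did not pass the test over all arm pairs (limma adjusted p = 0.118), with an exact permutation p of 0.1. The 3p arm held 99.7% ± 0.0484 and 99.8% ± 0.0444 of the counts of miR-222 (SD, n = 3 each).

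**Figure D3:**
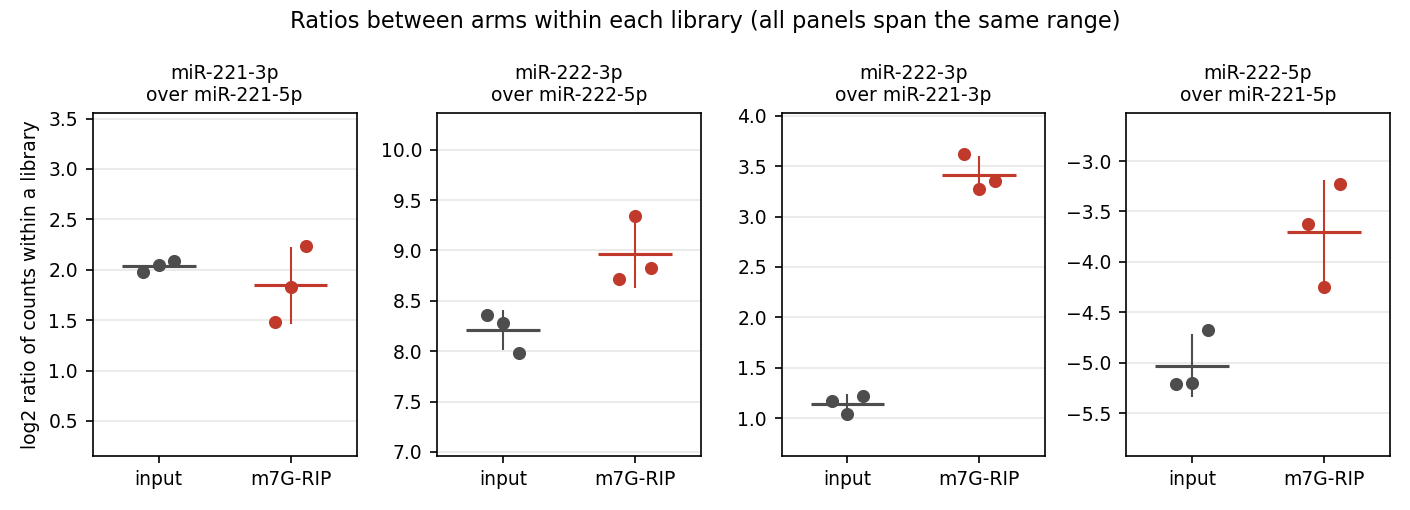
Log2 ratio of the counts of 2 arms within each library for the 4 pairs, in input (grey) and m7G-RIP (red). Points are libraries, horizontal lines are means, vertical lines are 1 SD, and every panel spans the same number of log2 units. The separation is widest for miR-222-3p over miR-221-3p, with means of 1.14 and 3.42, whereas miR-221-3p over miR-221-5p overlaps.

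Other pairs give the scale of these changes. A change of the ratio between miRNAs that share a seed was called for 92 of 162 pairs (56.8%), so it was common. By size, miR-222-3p over miR-221-3p was 25th of the 162, against a median size of 0.95. Its neighbours in that order were miR-20a-5p over miR-106b-5p at 2.28 (SE 0.35) and miR-200b-5p over miR-200a-5p at 2.22 (SE 0.58), each of which differed from it by less than its SE. Pairs from large seed families share members and are not independent. Among the 39 seeds that were held by exactly 2 measured miRNAs, a restriction chosen after seeing the data, the pair was 7th by size, and the next larger was miR-3922-3p over miR-3176 at -2.83 (SE 1.22). Arm pairs were called for 59 of 143 hairpins (41.3%) and had a median size of 1.68. The miR-222 arms came 102nd and the miR-221 arms 132nd of the 143. Next to the miR-222 arms were those of miR-185 at -0.78 and miR-503 at 0.72, and next to the miR-221 arms were those of miR-378a at -0.19 and miR-93 at 0.18.

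**Figure D4:**
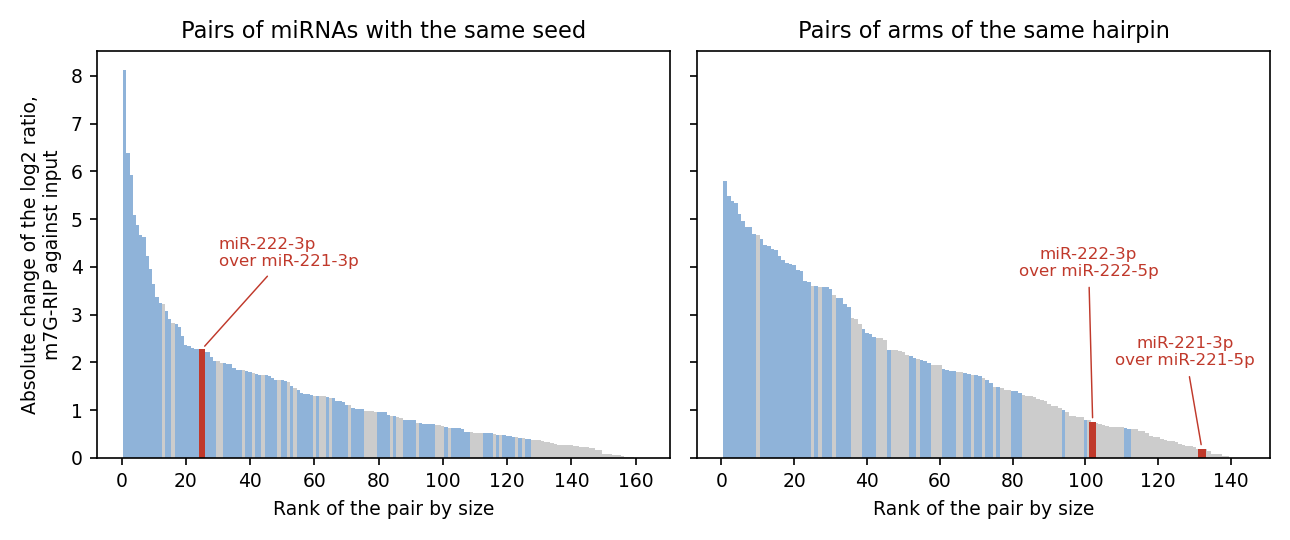
Absolute change of the log2 ratio between m7G-RIP and input, in order of size, for 162 pairs of miRNAs with the same seed and for 143 pairs of arms of the same hairpin. Blue bars passed the limma test at an adjusted p under 0.05, grey bars did not, and the pairs of miR-221 and miR-222 are in red. The 3p arms of miR-221 and miR-222 rank 25th among same-seed pairs, whereas the arm pairs rank 102nd and 132nd.

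Of all counts of a library, the 4 members together took 0.787% ± 0.0654 in input and 1.06% ± 0.0303 in m7G-RIP (SD, n = 3 each; exact permutation p = 0.1), a difference of 0.274 percentage points. This difference turned to -0.379 when miR-21-5p, the most abundant miRNA of the input, was left out of the total. The share of all counts thus has no direction that holds under both denominators, whereas the ratios between members do not depend on it.

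The base content of the members was set beside that of the 557 tested miRNAs with a RefSeq sequence (89.8% of those tested). Across these miRNAs the log2 ratio was higher with a larger share of G (Pearson r = 0.41, Spearman rho = 0.436) and lower with a larger share of U (r = -0.196, rho = -0.223) or of A (r = -0.212, rho = -0.232). These are descriptions across miRNAs of the same 6 libraries, which are not independent replicates. miR-221-3p and miR-222-3p each hold 6 G, at 26.1% and 28.6% of their bases, and each has a longest G run of 3. The 62 other tested miRNAs with 6 G had a median log2 ratio of -0.36 with quartiles of -1.80 and 0.50, so that miR-222-3p fell within the quartiles and miR-221-3p just below the lower one. U makes up 39.1% of miR-221-3p and 28.6% of miR-222-3p. miR-222-5p holds 5 G (22.7%) and has no run of G, and the 81 others with 5 G had a median log2 ratio of -0.72. 

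A run of 3 or more G was present in 199 of the 557 miRNAs (35.7%), whose median log2 ratio was 0.87, against -0.55 for those without. Both 3p arms hold such a run, in the CUGGGU that they share, and they lay on opposite sides of zero. Among same-seed pairs, the change in ratio and the difference in G share had r = 0.276 over 162 pairs and r = -0.189 over the 39 from seeds with 2 measured miRNAs. For the difference in U share the values were r = -0.16 and r = 0.0401. Which miRNA of a pair came first was set by name, and these values depend on that order. The 162 pairs also come from only 53 seeds, so no conclusion on either base is drawn from them. Quadruplexes are stacked structures of G-rich RNA. The pattern for one, 4 runs of at least 2 G separated by 1 to 7 bases and read on the RNA strand alone, matched 29.2% of 1560 RefSeq hairpins and neither MIR221 nor MIR222. This says only that the pattern is not in these hairpins.

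**Figure D5:**
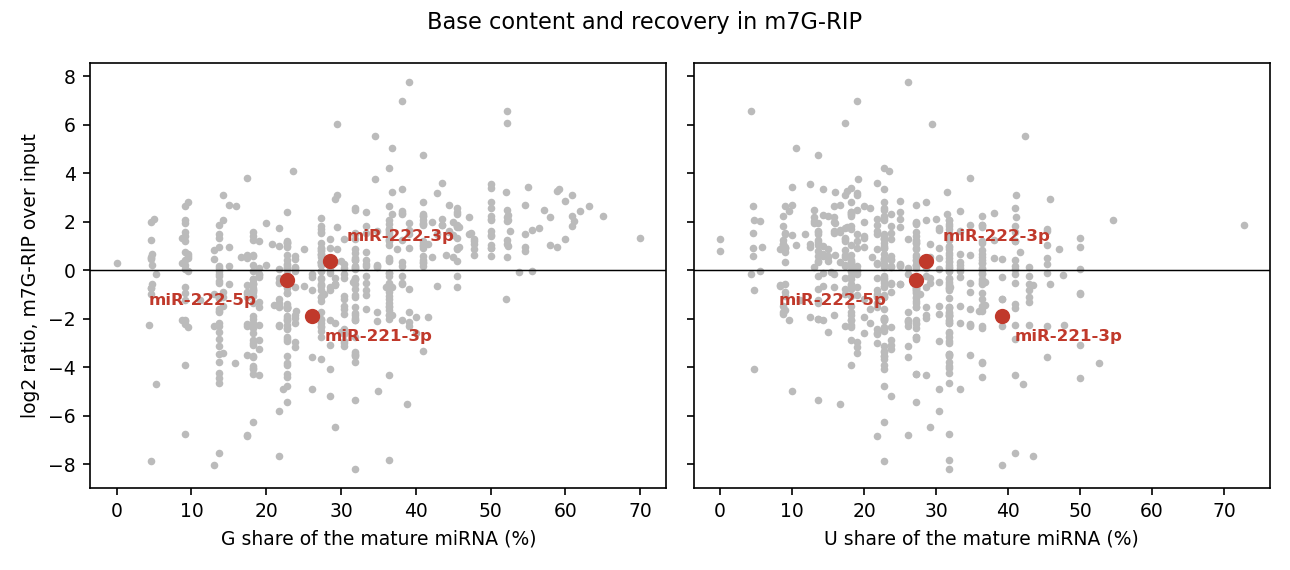
Log2 ratio of m7G-RIP over input against the share of G (left) and U (right) in the mature miRNA for the 557 tested miRNAs with a RefSeq sequence. Grey points are miRNAs and red points are the 3 members with a sequence. The 3p arms have like shares of G (26.1% and 28.6%) and ratios of -1.90 and 0.36.

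The miRNAs with the most similar profile were sought by the distance between centred log2 CPM values over the 6 libraries, among 302 others with a mean of at least 100 counts. For miR-221-3p these were miR-378a-3p, miR-30c-5p and miR-27a-3p, with log2 ratios of -1.86, -2.05 and -1.99. For miR-221-5p they were miR-224-5p, miR-200b-3p and miR-181b-5p, with log2 ratios from -1.68 to -1.56. For miR-222-3p they were miR-501-3p, let-7d-5p and miR-744-5p, with log2 ratios of 0.35, 0.49 and 0.31. For miR-222-5p the nearest was miR-370-3p at a distance of 0.43, farther than the nearest of any other member (0.17 to 0.31), followed by miR-1307-3p and miR-4326. With 2 groups of 3 libraries such a likeness mainly reflects a like ratio of m7G-RIP to input.

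Other miRNAs known to act on CDKN1B, a target of miR-221-3p and miR-222-3p, were taken as a list. All 4 were tested, 3 were depleted and 1 was enriched, with a median log2 ratio of -2.15, against -0.074 for all miRNAs tested. Of all miRNAs tested, 29.2% were depleted and 23.5% enriched, and a list of 4 is too short to be judged against these shares. The lowest was miR-181a-5p at -3.57 (SE 0.16) and the highest was miR-196a-5p at 1.60 (SE 0.16; edgeR adjusted p = 4.02e-05). Of the members with this target, miR-221-3p, at -1.90, was depleted less than this median. miR-222-3p stood at 0.36, with a call that was lost under several settings.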

How the data were processed

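Raw read counts of mature miRNAs, as the authors deposited them, were used for 3 input and 3 m7G-RIP libraries, made with a small RNA ligation kit. Per the study's methods, Trimmomatic removed adaptors, STAR placed whole reads on GRCh38 with at most 1 mismatch, and reads were counted with featureCounts on miRBase. The submitters' processing notes name Bowtie2 in place of STAR. How reads with several alignments were counted is not stated. Counts within a group differed by more than sampling noise, so no library was treated as a repeat deposit of another, and each was counted once in n.

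Input and m7G-RIP were compared with edgeR 4.0.16 under R 4.3.3 (TMM, default filter by group, robust quasi-likelihood test, Benjamini-Hochberg adjustment, threshold 0.05). The SE given with an edgeR log2 ratio is the size of that ratio divided by the square root of the F statistic of its test. Ratios within a library were log2 of counts with a pseudocount of 0.5, for pairs with mean counts of at least 10, and were tested with limma 3.58.1 with a trend on abundance. Exact permutation tests are two-sided. RefSeq mature sequences matched 2281 of 2588 names. The code was tested on simulated counts, where 77.0% of 4-fold, 40.6% of 2-fold and 0.504% of unchanged miRNAs were called. Of simulated arm pairs that changed 4-fold or more, 67.7% were called. Alternatives covered scaling, filters, DESeq2 1.42.0, limma-voom, edgeR's likelihood ratio test, pseudocount, a replicate block and each library left out. The members and lists were chosen with earlier results of these data known. Named miRNAs are the 4 members, those with their seeds, the 3 nearest profiles of each, the neighbours of each member pair, and the highest and lowest of a list of miRNAs that target CDKN1B. Cell type markers and miR-21-5p, which was left out of the total in an alternative, are named besides. A further planned list is not reported here.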

Additional observations from a re-analysis of the deposited data

How the results depend on the processing

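The direction and call of miR-221-3p (log2 ratio -2.18 to -1.35) and miR-221-5p (-1.99 to -1.15) held under all 15 alternatives run for each. The call of miR-222-3p did not: without a filter its log2 ratio was 0.084 (edgeR adjusted p = 0.574), and with a library left out it ran from 0.13 to 0.36, past the threshold only without input replicate 3. The cause was not tested. miR-222-5p, not called under any alternative, turned to 0.16 with library size alone and to 0.064 with library sizes taken without the 10 most abundant miRNAs. Those scalings moved the median of all miRNAs tested by 0.55 and 0.45, and testing without a filter moved it by -0.72. The difference in the share of the 4 members in all counts turned to -0.379 points without miR-21-5p. With a library left out, the changes ran from 2.17 to 2.34 for miR-222-3p over miR-221-3p, -0.38 to -0.0067 for miR-221-3p over miR-221-5p, 0.56 to 0.88 for miR-222-3p over miR-222-5p and 1.10 to 1.60 for miR-222-5p over miR-221-5p. The counts of all miRNAs ran from 116 to 216 enriched and 133 to 245 depleted over all alternatives. By library sizes without the 10 most abundant miRNAs, 203 were enriched and 151 depleted. Samples with the same number did not deviate together (r from -0.10 to 0.064 over all miRNAs tested, and 0.073, 0.078 and 0.098 over those with a mean of at least 100 counts, none over 0.1), so the numbers were not taken to pair them. A replicate block gave log2 ratios of -1.91, -1.72, 0.36 and -0.40 for miR-221-3p, miR-221-5p, miR-222-3p and miR-222-5p, a change of 2.27 for miR-222-3p over miR-221-3p, and 122 enriched and 175 depleted miRNAs, and changed no call of the members. miR-222-5p had 38 to 202 counts a library, and whether depth kept it from being called was not tested.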
